A study of Mus musculus with 12 samples.

Results

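The 38 genes described here handle fatty acids and lipids in the cell, from uptake and activation through import into mitochondria and beta-oxidation to storage in lipid droplets and export in lipoproteins. Their RNA was measured by RNA-seq of total RNA in organoids of the mouse colon, that is, hollow epithelial bodies raised from crypts in matrigel. The members were named as a list of gene symbols, matched to the rows of the table through Ensembl identifiers in the GENCODE vM21 annotation, and all 38 were found among the 48795 genes of the table. The 12 libraries fell into 4 groups of 3. Organoids with strain background C57BL/6 came from wild-type mice (WT) or from mice labelled AhR deficient or AhR-/- (KO). AhR is the aryl hydrocarbon receptor, which binds ligands from diet and microbes and then acts as a transcription factor. Both genotypes were grown in a stem cell enrichment medium that held EGF, Noggin, Rspondin-1 and Wnt-3A (stem), or were then kept for 3 days in a medium free of Wnt-3A (differentiated). Whether the 3 libraries of each group stem from different mice or cultures, and which part of Ahr was deleted, is not in the labels. The p-values therefore rest on the spread between libraries, which may be technical.

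Fatty acids enter the cell with the help of CD36 and the fatty acid transport proteins and are carried by fatty acid binding proteins. Acyl-CoA synthetases activate them, the carnitine shuttle moves long chains across the inner mitochondrial membrane, and a cycle of dehydrogenation, hydration, oxidation and thiolysis then shortens the chain and passes electrons to the respiratory chain. Peroxisomes hold a parallel set of enzymes, while diacylglycerol acyltransferases, perilipins, the microsomal triglyceride transfer protein and apolipoprotein B serve storage and export. Many of these genes are known targets of the nuclear receptor PPARα, and surface colonocytes are known to oxidise fatty acids, above all butyrate, as fuel.

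Levels are normalized counts, that is, reads of a gene divided by a size factor of the library, and values of 3 libraries are given in the order of libraries 1, 2 and 3. A log2 change (log2) is the difference of group means of log2(normalized count + 1), given ± SE from a limma fit of all 12 libraries. A gene is called where its p-value adjusted over 14856 tested genes is under 0.05. The libraries held 25057534 to 99023592 reads. Of the members, 37 passed the filter of 10 normalized counts in 3 libraries. Fabp1, the liver fatty acid binding protein, did not, with 2, 0 and 0 reads in WT differentiated, 1, 0 and 1 in KO differentiated and 0 in the 6 stem libraries.

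The targeted gene, Ahr, had more reads in KO than in WT. It had 1762, 1746 and 1909 normalized counts in WT stem and 2503, 2831 and 2690 in KO stem (log2 0.57 ± 0.08, adjusted p = 0.00208). In the differentiated condition it had 2127, 2236 and 2260 in WT and 3824, 3356 and 3110 in KO (log2 0.63 ± 0.08, adjusted p = 5.97e-04). With 1 value per gene, it cannot be told if the deleted exons were transcribed, so this does not check the labels. Cyp1b1, a cytochrome P450 gene induced through AhR, was at 7479 to 8502 in WT stem and 269 to 571 in KO stem, and at 574 to 680 in WT differentiated and 13 to 20.6 in KO differentiated. WT stem library 1 stood apart, with a summed level of 22002 over 9 fibroblast markers beside at most 632 in any other library. Most of this sum was Vim, at 13196, and Col1a1, at 4788, and Col1a2, Col3a1, Fbn1 and Sparc were also highest there. However, Dcn and Lum were at 0 in it. Pdgfrb was at 71.7, between the 94.2 and 55.4 of WT stem libraries 2 and 3. The epithelial markers Epcam and Cdh1 were at 30131 and 65863 or above in every library.

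The promoters of 4 members with large changes between genotypes follow, to set the sequence beside the values. The letters are the reference sequence from RefSeq on GRCm38.p6, read 5′ to 3′ on the strand of the gene. They end before the RefSeq start or, for Pdk4 and Slc25a20, before the GENCODE start 31 and 48 bases upstream of it. Capitals mark GCGTG, the core of the AhR response element, or AGGTCA, the half-site of nuclear receptors such as PPARα, on either strand. The Cd36 window is chr5:17835897-17836146 on the minus strand, whose start lies 52905 bases inside the gene as GENCODE annotates it. The Pdk4 window is chr6:5496310-5496528 on the minus strand, the Fabp2 window chr3:122894822-122895071 on the plus strand, and the Slc25a20 window chr9:108661886-108662087 on the plus strand.
Cd36: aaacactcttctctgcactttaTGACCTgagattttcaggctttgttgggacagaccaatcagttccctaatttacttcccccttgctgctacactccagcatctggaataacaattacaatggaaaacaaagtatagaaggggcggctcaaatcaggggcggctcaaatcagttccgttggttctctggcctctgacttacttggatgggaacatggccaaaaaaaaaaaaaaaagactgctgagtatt
Pdk4: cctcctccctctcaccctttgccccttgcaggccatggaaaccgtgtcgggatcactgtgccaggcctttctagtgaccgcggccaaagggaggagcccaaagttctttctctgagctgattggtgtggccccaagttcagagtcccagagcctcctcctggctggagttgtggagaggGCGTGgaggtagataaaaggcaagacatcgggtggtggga
Fabp2: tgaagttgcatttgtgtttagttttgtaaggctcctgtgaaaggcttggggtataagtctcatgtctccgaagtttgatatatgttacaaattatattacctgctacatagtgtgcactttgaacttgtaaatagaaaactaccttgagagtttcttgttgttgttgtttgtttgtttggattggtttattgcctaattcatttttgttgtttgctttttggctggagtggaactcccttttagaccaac
Slc25a20: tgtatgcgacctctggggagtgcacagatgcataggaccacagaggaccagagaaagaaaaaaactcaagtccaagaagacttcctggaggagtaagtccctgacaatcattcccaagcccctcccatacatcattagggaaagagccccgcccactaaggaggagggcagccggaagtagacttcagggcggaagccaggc
Of 33 tested members with a promoter in the RefSeq table, 19 (57.6%) held GCGTG within the 250 bases before the RefSeq start, beside 45.2% of 10828 promoters of tested genes, and 6 (18.2%) held AGGTCA beside 10.8%. Some of these starts lie far from the GENCODE start, as for Eci2 (32952 bases) and Mttp (1550 bases), both counted with GCGTG. A direct repeat of AGGTCA with 1 base between the copies, counted where at least 10 of its 12 letters matched, was found in Cd36, Etfa and Plin2 (9.09%), beside 2.77% of all promoters. Cd36 and Plin2 were in the counts of both motifs, while Etfa held no AGGTCA, as the repeat was matched without an exact half-site. The capitals mark exact letters only and not the repeat. Dgat2, Dgat1, Acaa2 and Decr1 are named only. A match of letters is a description and says nothing about binding.

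After 3 days without Wnt-3A most of the genes were higher, and in that condition many were lower in KO than in WT. In WT, 22 of 37 tested members were higher in the differentiated than in the stem cell condition and 5 were lower. Beside this, 36.3% of all tested genes were called higher and 35.9% lower (72.2% in either direction). In KO, 21 were higher and 8 lower, beside 34.1% and 33.6% of all genes (67.7%). The median log2 change of the members was 0.65 in WT and 0.42 in KO, while the median over all tested genes was 0.01 in both. The members called higher in both genotypes numbered 20, those lower in both 5, and none was called in opposite directions.

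Between genotypes, 2 members were higher and 0 lower in KO in the stem cell condition, beside 3.48% and 3.09% of all genes (6.57%). That split of all genes was 517 higher and 459 lower in limma, also with recomputed size factors, 573 and 346 after quantile normalization, 635 and 308 in edgeR and 840 and 1144 in DESeq2. The median log2 change was -0.01 for the members and -0.04 for all genes. Of the 2 higher members, Cd36 passed the filter only through the KO stem libraries. In the differentiated condition 0 were higher and 15 lower in KO, that is 40.5% of the 37. This stands beside 13.8% of all genes called higher and 13.9% lower (27.6%). The median was -0.29 for the members and 0.02 for all genes, and 33 of 37 members had a log2 change below 0. The libraries of WT and KO did not overlap for 27 members in the differentiated condition and for 7 in the stem cell condition, beside 53.1% and 29.5% of all genes. The counts of 0 came from limma. At an unadjusted p under 0.05 there were 0 lower members in the stem cell condition and 1 higher member, Mttp, in the differentiated condition. DESeq2 and edgeR likewise called 0 members lower in KO stem, and each called 1 member, Pdk4, higher in KO differentiated. Without KO differentiated library 1, or without WT differentiated library 3, the count of 15 lower members was 10. The genes called lower over the whole table then numbered 1220 and 1138, beside 2058 with all libraries.

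A test of the difference itself (the interaction, that is, the KO effect in the differentiated condition minus that in the stem cell condition) called 0 members higher and 6 lower, beside 5.12% and 3.58% of all genes (8.7%). The 6 were Cd36, Fabp2, Dgat2, Slc25a20, Cpt1a and Acadl. At an unadjusted p under 0.05 there were 0 members higher and 16 lower, and both edgeR and DESeq2 called 0 higher. Without KO stem library 2 or without WT differentiated library 1, Fabp2 and Dgat2 remained of these 6. Without KO stem library 1 or WT differentiated library 3 the count was 3, and without WT stem library 1 it was 7, with Eci2 called higher.

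**Figure D1:**
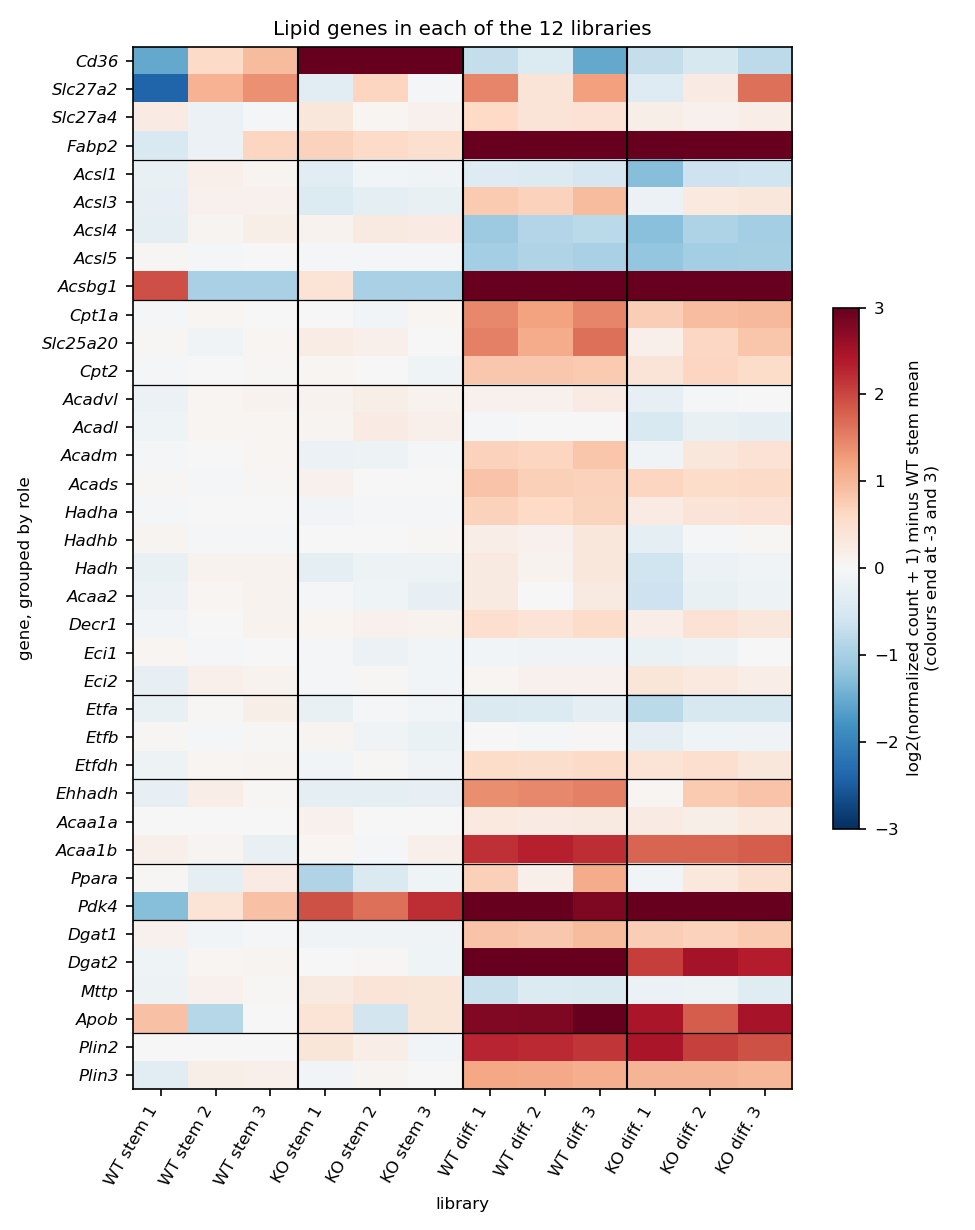
Each row is 1 of the 37 tested members, grouped by role, each column 1 of the 12 libraries, and the colour is log2(normalized count + 1) minus the mean of the 3 WT stem libraries, with colours ending at -3 and 3. The differentiated libraries are red for most genes, Cd36 is dark in the 3 KO stem libraries, and in the KO differentiated libraries the rows of the carnitine shuttle, Ehhadh and Dgat2 are paler than in WT.

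Per kilobase of exon, the mean over 12 libraries spanned 0.447 normalized counts for Fabp1 to 5917 for Acadl, the long-chain acyl-CoA dehydrogenase. The tested genes had a median of 243 normalized counts per kilobase, and 27 members lay above it. Acsl5, at 3678, Etfb, at 3367, Etfa, at 2969, and Acaa2, at 2924, followed Acadl on this scale. The lowest tested members were Slc27a2 at 2.05, Cd36 at 3.59, Pdk4 at 5.24 and Ppara at 8.97, so the uptake receptor and both regulators were detected by few reads.

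Cd36, the fatty acid translocase at the cell surface (ENSMUSG00000002944, GRCm38 chr5:17781690-17888801), had 0, 3 and 4 reads in WT stem and 70, 90 and 38 in KO stem. As normalized counts these were 0, 3.32 and 4.62 in WT stem, 37.7, 66 and 38.7 in KO stem, 0.763, 1.19 and 0 in WT differentiated and 0.762, 1.07 and 0.682 in KO differentiated. The 3 KO stem libraries lay above all others, and the other 9 held at most 4 reads each. Only through those KO stem libraries did Cd36 pass the filter, so its tests depend on the group where it was high. The pooled reads gave a ratio of KO to WT in the stem cell condition of 16 (95% exact interval 7.64 to 40.4, counting error only; limma log2 4.02 ± 0.62, adjusted p = 0.00383). In KO the stem level was 58.4 times the differentiated one (interval 19.7 to 285, from 3 reads; log2 -4.68 ± 0.62, adjusted p = 4.10e-05). The interaction was log2 -3.80 ± 0.88, adjusted p = 0.027. The size of these fitted log2 changes depends on the pseudocount, since 3 of the groups were near 0. The interaction was no longer called without KO stem library 1 or 2 or WT differentiated library 1 or 2 (adjusted p up to 0.0722). It was not called by edgeR either (adjusted p = 0.121), nor with a pseudocount of 0.5, and DESeq2 gave it no adjusted p.

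Cd36 is also known from adipocytes, endothelial cells and macrophages, whose markers are given beside it. Of the 7 adipocyte markers, Lep and Cfd were at 0 in all 12 libraries. Adipoq had 1 read in the 6 stem libraries together. The list summed to 1247 to 5929 in WT stem and 1985 to 3475 in KO stem, nearly all of it Pparg. The fibroblast markers summed to 77.6, 49.2 and 632 in KO stem libraries 1, 2 and 3. Library 2 had the lowest of these sums and the highest Cd36. WT stem library 1 had a sum of 22002 and 0 Cd36 reads. The 5 endothelial markers summed to 123 to 177 in WT stem and 136 to 168 in KO stem. The 6 macrophage and leukocyte markers summed to 1707 to 3380 in WT stem and 4443 to 4596 in KO stem, nearly all of it Cd68. In this list Cd3e and Adgre1 were at 0 in all 6 stem libraries and Ptprc at 3.26 or below. The part of any of these cell types in the Cd36 difference was not tested.

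Fabp2, the intestinal fatty acid binding protein (ENSMUSG00000023057, chr3:122895072-122899506), rose with differentiation in both genotypes and was lower in KO there. Its levels were 1.63, 2.22 and 4.62 in WT stem and 4.85, 4.4 and 4.07 in KO stem, against 795, 451 and 729 in WT differentiated and 44.9, 97.3 and 106 in KO differentiated. Every differentiated library lay above every stem library, and the KO differentiated libraries lay below the WT ones without overlap. The means differed 7.97-fold between WT and KO in the differentiated condition (log2 -3.03 ± 0.38, adjusted p = 5.89e-04). From pooled reads the rise with differentiation was 229-fold in WT (interval 111 to 570) and 18.2-fold in KO (11.4 to 30.6). Fabp2 passed the filter only through the differentiated libraries, where it was high. The interaction (log2 -3.62 ± 0.54, adjusted p = 0.0098) was called without any 1 library and by edgeR and DESeq2.

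The fatty acid transport proteins moved less. Slc27a4, the intestinal fatty acid transport protein, was at 3647, 2741 and 2968 in WT stem, 3948, 3234 and 3366 in KO stem, 4667, 4024 and 4152 in WT differentiated and 3517, 3410 and 3574 in KO differentiated. In WT it rose (log2 0.46 ± 0.11, adjusted p = 0.00202), and its KO effect in the differentiated condition was log2 -0.29 ± 0.11, adjusted p = 0.0651, which passed the threshold without WT stem library 1. DESeq2 called Slc27a4 lower there too, as did limma with a replicate block over all libraries. Slc27a2, an acyl-CoA synthetase of peroxisomes and endoplasmic reticulum, lay between 0 and 15.7 normalized counts and was called in none of the 5 comparisons. In bulk libraries, fewer cells of a type and less RNA per cell cannot be told apart for any of these genes.

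The acyl-CoA synthetases split into those that rose and those that fell without Wnt-3A, in the same directions in both genotypes. Acsl3, which acts at the endoplasmic reticulum and on nascent lipid droplets, was at 6396, 8260 and 8271 in WT stem, 5754, 6283 and 6511 in KO stem, 13181, 12228 and 14573 in WT differentiated and 6704, 9235 and 9607 in KO differentiated. It rose 1.74-fold in WT (log2 0.81 ± 0.14, adjusted p = 2.56e-04) and 1.38-fold in KO (log2 0.45 ± 0.14, adjusted p = 0.014; up to 0.0613 without KO differentiated library 2 or 3 or KO stem library 1). It was lower in KO differentiated than in WT without overlap (log2 -0.66 ± 0.14, adjusted p = 0.00661). Acsbg1, a synthetase of very long-chain fatty acids known from brain, had 4, 0 and 0 reads in WT stem and 3, 0 and 0 in KO stem. It reached 1331, 1159 and 1065 normalized counts in WT differentiated and 1200, 879 and 727 in KO differentiated. The pooled ratio of differentiated to stem was 733 in WT (interval 286 to 2691) and 1306 in KO (446 to 6334). All stem reads were in library 1 of their group, so without it no finite ratio can be given. Like Fabp2, Acsbg1 passed the filter only through the differentiated libraries, where it was high. The differentiated groups overlapped between genotypes (log2 -0.37 ± 0.67, adjusted p = 0.719).

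Acsl5, a mitochondrial synthetase of the intestinal epithelium and the most abundant of the 5 per kilobase, fell. It had 24806, 23602 and 24098 in WT stem, 23413, 23275 and 23578 in KO stem, 11935, 12871 and 12370 in WT differentiated and 10770, 11869 and 12114 in KO differentiated. This was a fall to 0.513 of the stem level in WT and 0.495 in KO (log2 -0.96 ± 0.06, adjusted p = 3.21e-08 and log2 -1.02 ± 0.06, adjusted p = 3.52e-08). Acsl4, which prefers arachidonic acid, went from 6852, 8791 and 9327 to 3899, 4521 and 4699 in WT and from 8879, 9911 and 9741 to 3454, 4327 and 4088 in KO (log2 -0.92 ± 0.12, adjusted p = 3.07e-05 and log2 -1.27 ± 0.12, adjusted p = 2.90e-06). The differentiated libraries lay below the stem libraries for both genes, and neither gene was called between WT and KO in either condition.

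Acsl1, a synthetase shared by synthesis and oxidation, was at 1863, 2447 and 2301 in WT stem, 1735, 2059 and 2038 in KO stem, 1678, 1660 and 1547 in WT differentiated and 904, 1423 and 1441 in KO differentiated. It fell in both genotypes, in KO with log2 -0.66 ± 0.16, adjusted p = 0.00406 and in WT with log2 -0.43 ± 0.16, adjusted p = 0.0352. The call in WT was lost without any 1 of the 3 WT differentiated libraries or without WT stem library 2 or 3 (adjusted p up to 0.116). Its KO effect in the differentiated condition was log2 -0.41 ± 0.16, adjusted p = 0.0888.

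All 3 genes of the carnitine shuttle rose with differentiation in both genotypes and were lower in KO differentiated than in WT. Among all tested genes, 36.3% rose in WT, 34.1% rose in KO and 13.9% were lower in KO differentiated. Cpt1a, carnitine palmitoyltransferase 1 of the outer membrane and the controlled step of mitochondrial import (ENSMUSG00000024900, chr19:3322334-3385733), was at 4004, 4340 and 4096 in WT stem and 4177, 3909 and 4312 in KO stem, and at 11323, 9504 and 11357 in WT differentiated and 6958, 7888 and 8151 in KO differentiated. The stem groups overlapped, while the highest KO differentiated library stayed below the lowest WT one (log2 -0.48 ± 0.08, adjusted p = 0.00257). The rise was 2.59-fold in WT and 1.85-fold in KO (log2 1.37 ± 0.08, adjusted p = 4.92e-08 and log2 0.89 ± 0.08, adjusted p = 2.28e-06). The interaction was log2 -0.48 ± 0.12, adjusted p = 0.0323. It was lost without any 1 of 7 libraries (KO stem 1, 2 or 3, KO differentiated 1 or 2, WT differentiated 1 or 3, adjusted p up to 0.0883) and had adjusted p = 0.0502 after quantile normalization. With the replicate number as a block within genotype it was not called either (adjusted p = 0.0519).

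Slc25a20, the carnitine-acylcarnitine carrier of the inner membrane (ENSMUSG00000032602, chr9:108662088-108684641), had 2499, 2276 and 2529 in WT stem, 2823, 2695 and 2401 in KO stem, 6942, 5286 and 7675 in WT differentiated and 2711, 3758 and 4336 in KO differentiated. KO differentiated library 1 lay within the range of the KO stem libraries, and the WT differentiated libraries lay above all others. The difference between genotypes in the differentiated condition was 1.84-fold (log2 -0.89 ± 0.17, adjusted p = 0.00378). The rise was 2.73-fold in WT (log2 1.43 ± 0.17, adjusted p = 1.08e-05) and 1.36-fold in KO (log2 0.42 ± 0.17, adjusted p = 0.0398). The call in KO was lost without KO differentiated library 2 or 3, any 1 KO stem library or WT differentiated library 1 (adjusted p up to 0.166). The interaction was log2 -1.01 ± 0.23, adjusted p = 0.0283. It was lost without KO stem library 1 or 2, WT differentiated library 1 or 3 or WT stem library 2 (adjusted p up to 0.0767).

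Cpt2, the inner membrane partner of Cpt1a, was at 2346, 2440 and 2478 in WT stem, 2530, 2428 and 2226 in KO stem, 4241, 4257 and 4168 in WT differentiated and 3156, 3777 and 3569 in KO differentiated. The differentiated groups did not overlap (log2 -0.27 ± 0.07, adjusted p = 0.0162). The call was lost without KO differentiated library 1 or WT differentiated library 1 (adjusted p up to 0.0555) and after quantile normalization (adjusted p = 0.0695). Cpt2 rose in WT (log2 0.80 ± 0.07, adjusted p = 1.06e-06) and in KO (log2 0.55 ± 0.07, adjusted p = 3.42e-05).

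**Figure D2:**
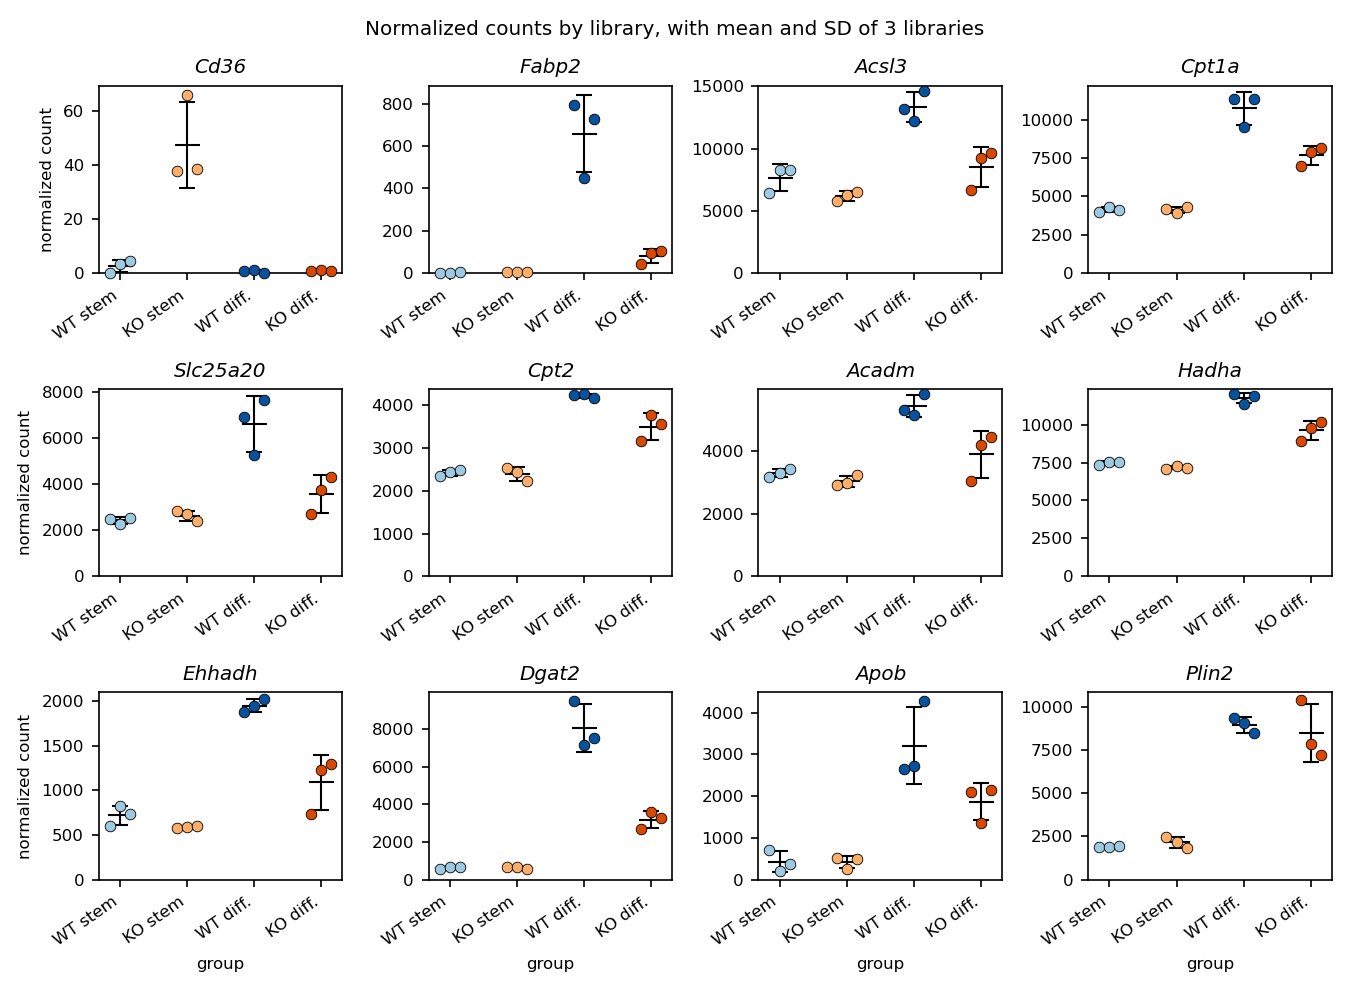
Each panel shows the normalized counts of 1 gene (y axis, linear from 0) in the 4 groups (x axis), with 1 point per library and the mean ± SD of 3 libraries as bars. Cd36 is high only in the 3 KO stem libraries, and in the 9 panels from Fabp2 to Dgat2 the points of KO differentiated lie below those of WT differentiated without overlap. Of all tested genes, 53.1% do not overlap there, in either direction.

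Of the 11 genes of mitochondrial beta-oxidation, 7 were lower in KO than in WT in the differentiated condition and none differed by the test in the stem cell condition (0 of 11 also at an unadjusted p under 0.05, and 0 by edgeR and DESeq2). Of all tested genes, 13.9% were called lower in KO differentiated. The falls of the 7 were between 0.25 and 0.53 on the log2 scale. The dehydrogenases that open the cycle are named for the chain length they take. Acadm, for medium chains, was at 3173, 3298 and 3443 in WT stem, 2917, 2974 and 3246 in KO stem, 5326, 5165 and 5833 in WT differentiated and 3056, 4204 and 4441 in KO differentiated. The differentiated groups did not overlap (log2 -0.50 ± 0.12, adjusted p = 0.0109). It rose in WT (log2 0.72 ± 0.12, adjusted p = 1.74e-04) and in KO (log2 0.34 ± 0.12, adjusted p = 0.0233, lost without KO differentiated library 2 or 3 or KO stem library 1 or 2, adjusted p up to 0.103).

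Acadl, for long chains (chr1:66830839-66863277), was at 11116, 12700 and 12723 in WT stem, 12907, 14410 and 13427 in KO stem, 11804, 12038 and 12000 in WT differentiated and 8849, 10435 and 9965 in KO differentiated. Its KO libraries lay above WT in the stem cell condition (log2 0.16 ± 0.07, adjusted p = 0.216) and below WT in the differentiated condition (log2 -0.30 ± 0.07, adjusted p = 0.0142). The latter had adjusted p = 0.0532 without KO differentiated library 1 and 0.101 after quantile normalization. It fell with differentiation in KO (log2 -0.48 ± 0.07, adjusted p = 1.38e-04) and had log2 -0.02 ± 0.07, adjusted p = 0.776 in WT. The interaction was log2 -0.46 ± 0.11, adjusted p = 0.027, lost without KO stem library 2 or without any 1 WT differentiated library (adjusted p up to 0.0712).

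Acadvl, for very long chains, was at 5101, 5968 and 6158 in WT stem, 6137, 6430 and 6134 in KO stem, 6282, 6236 and 6735 in WT differentiated and 4805, 5620 and 5782 in KO differentiated. The KO effect in the differentiated condition was near the threshold (log2 -0.25 ± 0.08, adjusted p = 0.045). It was lost without any 1 of 9 libraries, that is all but WT stem 1 and 3 and KO differentiated 3 (adjusted p up to 0.17), and with edgeR (adjusted p = 0.0784). The fall with differentiation in KO (log2 -0.21 ± 0.08, adjusted p = 0.0429) was lost without KO differentiated library 1 or without any 1 KO stem or WT differentiated library (adjusted p up to 0.173). Exons of Dvl2 on the other strand cover 42.9% of the exon bases of Acadvl. The use of strand in the counting is not given in the sources used here, so their reads may not be separable. Acads, for short chains such as butyrate, had 4819, 4514 and 4889 in WT stem, 5172, 4665 and 4697 in KO stem, 8545, 7753 and 7657 in WT differentiated and 7385, 6941 and 7014 in KO differentiated. It rose in WT (log2 0.75 ± 0.06, adjusted p = 6.43e-07) and in KO (log2 0.56 ± 0.06, adjusted p = 1.09e-05), and KO differentiated lay below WT without overlap but did not pass the limma test (log2 -0.17 ± 0.06, adjusted p = 0.0694). DESeq2 called Acads lower there, as did limma with a replicate block over all libraries.

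Hadha and Hadhb encode the subunits of the mitochondrial trifunctional protein and start 86 bases apart on opposite strands of chromosome 5. Hadha was at 7309, 7528 and 7555 in WT stem, 7100, 7256 and 7137 in KO stem, 11994, 11349 and 11866 in WT differentiated and 8900, 9791 and 10147 in KO differentiated. Hadhb was at 6340, 5771 and 5745 in WT stem, 5973, 5980 and 6090 in KO stem, 6825, 6512 and 7509 in WT differentiated and 4927, 5807 and 6133 in KO differentiated. Both were lower in KO differentiated by a like amount, Hadha with log2 -0.29 ± 0.05, adjusted p = 0.00375 and Hadhb with log2 -0.31 ± 0.08, adjusted p = 0.0182. Hadha rose in WT (log2 0.65 ± 0.05, adjusted p = 6.21e-07) and KO (log2 0.42 ± 0.05, adjusted p = 3.05e-05). Hadhb rose in WT (log2 0.22 ± 0.08, adjusted p = 0.0294, lost without WT differentiated library 1 or 3 or WT stem library 2 or 3, adjusted p up to 0.122) and had log2 -0.10 ± 0.08, adjusted p = 0.285 in KO. The lower level of Hadhb in KO differentiated was lost without KO differentiated library 1 or WT differentiated library 3 (adjusted p up to 0.0811) and after quantile normalization (adjusted p = 0.086).

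Hadh, the dehydrogenase for medium and short hydroxyacyl chains, was at 6621, 8269 and 8248 in WT stem, 6281, 6934 and 6913 in KO stem, 9284, 8188 and 9746 in WT differentiated and 5101, 6749 and 7185 in KO differentiated. Acaa2, the mitochondrial thiolase, was at 4082, 4827 and 4954 in WT stem, 4467, 4232 and 3867 in KO stem, 5551, 4602 and 5569 in WT differentiated and 3005, 3922 and 4123 in KO differentiated. Both were lower in KO differentiated without overlap, Hadh with log2 -0.53 ± 0.13, adjusted p = 0.0123 and Acaa2 with log2 -0.52 ± 0.12, adjusted p = 0.012. Both calls were lost without WT differentiated library 3 (adjusted p = 0.0549 and 0.0532). Neither was called between culture conditions in either genotype, although Hadh passed in WT without KO differentiated library 1.

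Decr1, Eci1 and Eci2 are auxiliary enzymes that feed unsaturated chains into the cycle. Decr1 was at 1474, 1555 and 1682 in WT stem, 1635, 1718 and 1680 in KO stem, 2225, 2099 and 2296 in WT differentiated and 1786, 2127 and 1987 in KO differentiated. It rose in WT (log2 0.49 ± 0.08, adjusted p = 9.97e-05) and in KO (log2 0.23 ± 0.08, adjusted p = 0.0191, lost without KO differentiated library 2 or 3 or KO stem library 1, adjusted p up to 0.0883). Eci2 had means of 1731 ± 255 in WT stem, 1685 ± 65.8 in KO stem, 1844 ± 59.6 in WT differentiated and 2100 ± 116 in KO differentiated (SD, n = 3). It rose in KO (log2 0.32 ± 0.10, adjusted p = 0.0121). It was the only gene of the 11 with a KO effect above 0 in the differentiated condition (log2 0.19 ± 0.10, adjusted p = 0.169), called higher without WT stem library 1. Eci1 lay between 1516 and 1826 in all 12 libraries and was called in no comparison.

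The electron transfer flavoprotein and its dehydrogenase, which pass electrons from the cycle to ubiquinone, were not called between genotypes. Etfa was at 5558, 6629 and 7348 in WT stem, 5560, 6250 and 6078 in KO stem, 4759, 4893 and 5385 in WT differentiated and 3705, 4609 and 4613 in KO differentiated. It fell in WT (log2 -0.37 ± 0.11, adjusted p = 0.0103) and KO (log2 -0.47 ± 0.11, adjusted p = 0.0026). Etfdh was at 2537, 2966 and 3004 in WT stem, 2676, 2902 and 2638 in KO stem, 4156, 4097 and 4195 in WT differentiated and 3741, 4009 and 3574 in KO differentiated. It rose in WT (log2 0.55 ± 0.07, adjusted p = 3.07e-05) and KO (log2 0.46 ± 0.07, adjusted p = 1.57e-04). Etfb, the other subunit of the flavoprotein, was at 4148, 3901 and 4200 in WT stem, 4312, 3795 and 3580 in KO stem, 4147, 3918 and 4202 in WT differentiated and 3325, 3726 and 3779 in KO differentiated. It was called in no comparison and shares 58.2% of its exon bases with the predicted gene Gm45233. For all 3 genes the KO differentiated libraries lay below the WT ones without overlap. Between genotypes, 53.1% of all tested genes did not overlap in that condition, in either direction. However, 0 of 3 were called there by limma, edgeR or DESeq2 (1 of 3 at an unadjusted p under 0.05 in limma), with log2 changes between -0.22 and -0.14.

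The peroxisomal enzymes rose with differentiation in both genotypes, and 2 of the 3 were lower in KO differentiated. The shares of all tested genes were 36.3% higher with differentiation in WT, 34.1% in KO and 13.9% lower in KO differentiated. Ehhadh, the peroxisomal bifunctional enzyme (ENSMUSG00000022853, chr16:21761287-21787807), was at 602, 822 and 733 in WT stem, 583, 590 and 606 in KO stem, 1879, 1943 and 2024 in WT differentiated and 740, 1232 and 1299 in KO differentiated. The WT differentiated libraries lay close together and above all others, and KO differentiated library 1 was below WT stem library 2 (log2 -0.88 ± 0.18, adjusted p = 0.00612). It rose 2.71-fold in WT (log2 1.45 ± 0.18, adjusted p = 2.09e-05) and 1.84-fold in KO (log2 0.83 ± 0.18, adjusted p = 0.00165).

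The thiolase paralogs Acaa1a and Acaa1b lie 183 kb apart on chromosome 9, and reads of near-identical stretches may have been split between them, so both values are uncertain. Acaa1a was at 3993, 3971 and 3972 in WT stem, 4351, 4013 and 3925 in KO stem, 4866, 4713 and 4820 in WT differentiated and 4683, 4523 and 4855 in KO differentiated. Acaa1b was at 60.3, 57.6 and 46.2 in WT stem, 57.1, 52.1 and 60.1 in KO stem, 253, 278 and 257 in WT differentiated and 184, 186 and 194 in KO differentiated. Acaa1b rose 4.8-fold in WT (log2 2.25 ± 0.14, adjusted p = 5.19e-08) and 3.33-fold in KO (log2 1.72 ± 0.14, adjusted p = 6.68e-07). It was lower in KO differentiated (log2 -0.48 ± 0.14, adjusted p = 0.0247, lost without any 1 WT differentiated library or without KO differentiated library 1 or 2, adjusted p up to 0.0784). Acaa1a rose by less (log2 0.27 ± 0.05, adjusted p = 5.34e-04 in WT and log2 0.20 ± 0.05, adjusted p = 0.00538 in KO), and its KO effect in the differentiated condition was log2 -0.03 ± 0.05, adjusted p = 0.648.

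Pdk4, the pyruvate dehydrogenase kinase that favours fatty acid over glucose oxidation (ENSMUSG00000019577, chr6:5483351-5496309), had 0, 2 and 3 reads in WT stem, 15, 9 and 10 in KO stem, 26, 19 and 7 in WT differentiated and 77, 44 and 38 in KO differentiated. As normalized counts these were 0, 2.22 and 3.46 in WT stem, 8.08, 6.6 and 10.2 in KO stem, 19.8, 22.7 and 15.9 in WT differentiated and 58.7, 47 and 25.9 in KO differentiated, with KO above WT in both conditions without overlap. It was called higher in KO stem (log2 1.92 ± 0.51, adjusted p = 0.0495, pooled ratio 3.86 with an interval of 1.5 to 12.6). The call was lost without any 1 of 10 libraries, that is all but KO differentiated 1 and WT stem 3 (adjusted p up to 0.144), and with edgeR and DESeq2 (adjusted p = 0.0885 and 0.0795). In the differentiated condition limma gave log2 1.07 ± 0.51, adjusted p = 0.143, while edgeR and DESeq2 called it (adjusted p = 0.049 and 0.0468), as did limma without WT stem library 1. It rose with differentiation in WT (log2 3.06 ± 0.51, adjusted p = 2.15e-04) and in KO (log2 2.21 ± 0.51, adjusted p = 0.00251). The stem libraries alone would not have passed Pdk4 through the filter.

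Ppara, the nuclear receptor of fatty acids, was read by 19 to 65 reads per library. Its normalized counts were 31, 24.4 and 35.8 in WT stem, 15.6, 22 and 27.5 in KO stem, 49.6, 33.4 and 65.9 in WT differentiated and 28.2, 37.4 and 42.3 in KO differentiated. Ppara was called in none of the 5 comparisons, with a KO effect of log2 -0.48 ± 0.30, adjusted p = 0.346 in KO stem and log2 -0.42 ± 0.30, adjusted p = 0.32 in KO differentiated against WT. With the replicate number as a block within genotype, since KO libraries of the same number deviated together, its rise with differentiation passed in KO (adjusted p = 0.0169 against 0.053 without the block). With that block the rise of Ppara passed in WT as well.

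Dgat2, which catalyses the last step of triglyceride synthesis and is linked to lipid droplets (ENSMUSG00000030747, chr7:99153658-99182719), had the largest fall between genotypes among the members after Fabp2. It was at 584, 662 and 674 in WT stem and 646, 658 and 584 in KO stem, at 9503, 7152 and 7509 in WT differentiated and at 2694, 3605 and 3270 in KO differentiated. The stem groups overlapped, while in the differentiated condition the lowest WT library was 7152 and the highest KO library 3605, a ratio of the means of 2.53 (log2 -1.34 ± 0.13, adjusted p = 1.23e-04). It rose 12.6-fold in WT and 5.07-fold in KO (log2 3.64 ± 0.13, adjusted p = 8.33e-10 and log2 2.33 ± 0.13, adjusted p = 3.29e-08). The interaction was log2 -1.31 ± 0.18, adjusted p = 0.00876 and was called without any 1 library and by edgeR and DESeq2. Dgat1, the enzyme of the same reaction in the endoplasmic reticulum, was at 916, 790 and 823 in WT stem, 779, 785 and 782 in KO stem, 1530, 1483 and 1619 in WT differentiated and 1409, 1350 and 1454 in KO differentiated. It rose in WT (log2 0.87 ± 0.07, adjusted p = 4.57e-07) and KO (log2 0.84 ± 0.07, adjusted p = 9.00e-07) and had a KO effect of log2 -0.14 ± 0.07, adjusted p = 0.165 in the differentiated condition.

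Apob, the scaffold of triglyceride-rich lipoproteins, was at 706, 212 and 385 in WT stem, 516, 264 and 495 in KO stem, 2643, 2715 and 4282 in WT differentiated and 2108, 1360 and 2147 in KO differentiated. It rose 7.4-fold in WT (log2 3.02 ± 0.40, adjusted p = 3.30e-05) and 4.41-fold in KO (log2 2.17 ± 0.40, adjusted p = 5.18e-04). Although KO differentiated lay below WT without overlap the difference did not pass (log2 -0.77 ± 0.40, adjusted p = 0.172). Apob lies 27.5 Mb from Ahr on chromosome 12. Mttp, which loads lipid onto Apob, was at 287, 349 and 328 in WT stem, 389, 422 and 414 in KO stem, 201, 240 and 238 in WT differentiated and 283, 289 and 247 in KO differentiated. It fell with differentiation in WT (log2 -0.50 ± 0.11, adjusted p = 0.00196) and in KO (log2 -0.58 ± 0.11, adjusted p = 8.01e-04). Its KO libraries lay above WT without overlap in both conditions (log2 0.35 ± 0.11, adjusted p = 0.0927 in stem and log2 0.27 ± 0.11, adjusted p = 0.102 in differentiated), and DESeq2 called the stem difference (adjusted p = 0.0436).

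Both lipid droplet coat genes rose in both genotypes, beside 36.3% of all tested genes in WT and 34.1% in KO. Plin2, the coat protein of most cells and a known PPARα target, was at 1914, 1900 and 1928 in WT stem, 2465, 2194 and 1805 in KO stem, 9361, 9061 and 8479 in WT differentiated and 10416, 7888 and 7231 in KO differentiated. It rose 4.68-fold in WT (log2 2.23 ± 0.13, adjusted p = 4.11e-08) and 3.95-fold in KO (log2 1.98 ± 0.13, adjusted p = 1.71e-07), and the differentiated groups overlapped (log2 -0.09 ± 0.13, adjusted p = 0.638). Plin3 was at 3375, 4793 and 4663 in WT stem, 4002, 4463 and 4293 in KO stem, 9387, 9253 and 9038 in WT differentiated and 8557, 8518 and 8483 in KO differentiated. It rose 2.16-fold in WT (log2 1.13 ± 0.11, adjusted p = 2.15e-06) and 2-fold in KO (adjusted p = 7.75e-06), with a KO effect of log2 -0.11 ± 0.11, adjusted p = 0.456 in the differentiated condition.

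**Figure D3:**
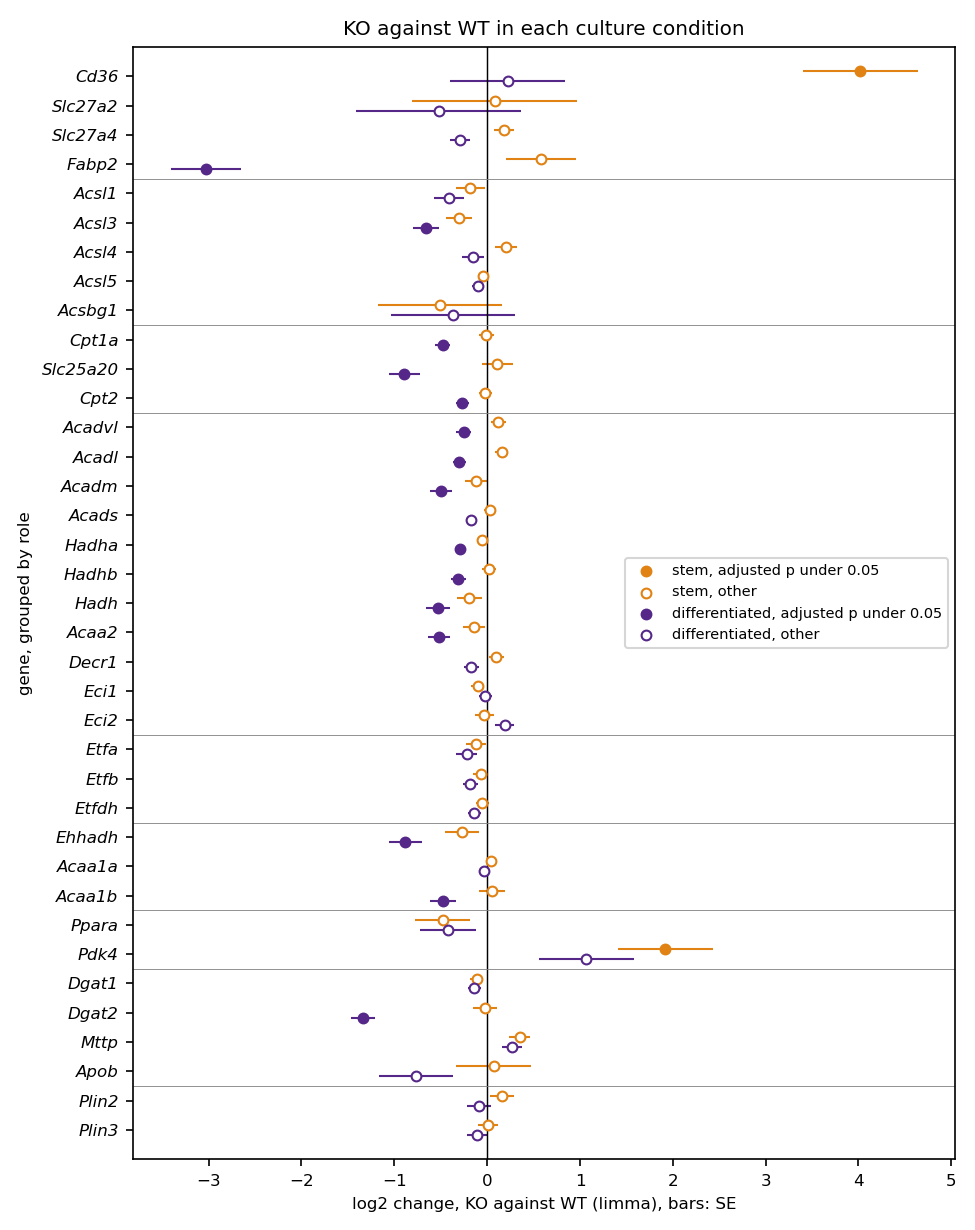
Points are the limma log2 change of KO against WT for each tested member (rows, grouped by role) in the stem cell condition (orange) and the differentiated condition (purple), with bars for the SE and filled points for adjusted p under 0.05. In the differentiated condition 33 of 37 points lie left of 0 and 15 are filled, while in the stem cell condition Cd36 and Pdk4 are filled, both to the right. Cd36 passed the filter only through the KO stem libraries.

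**Figure D4:**
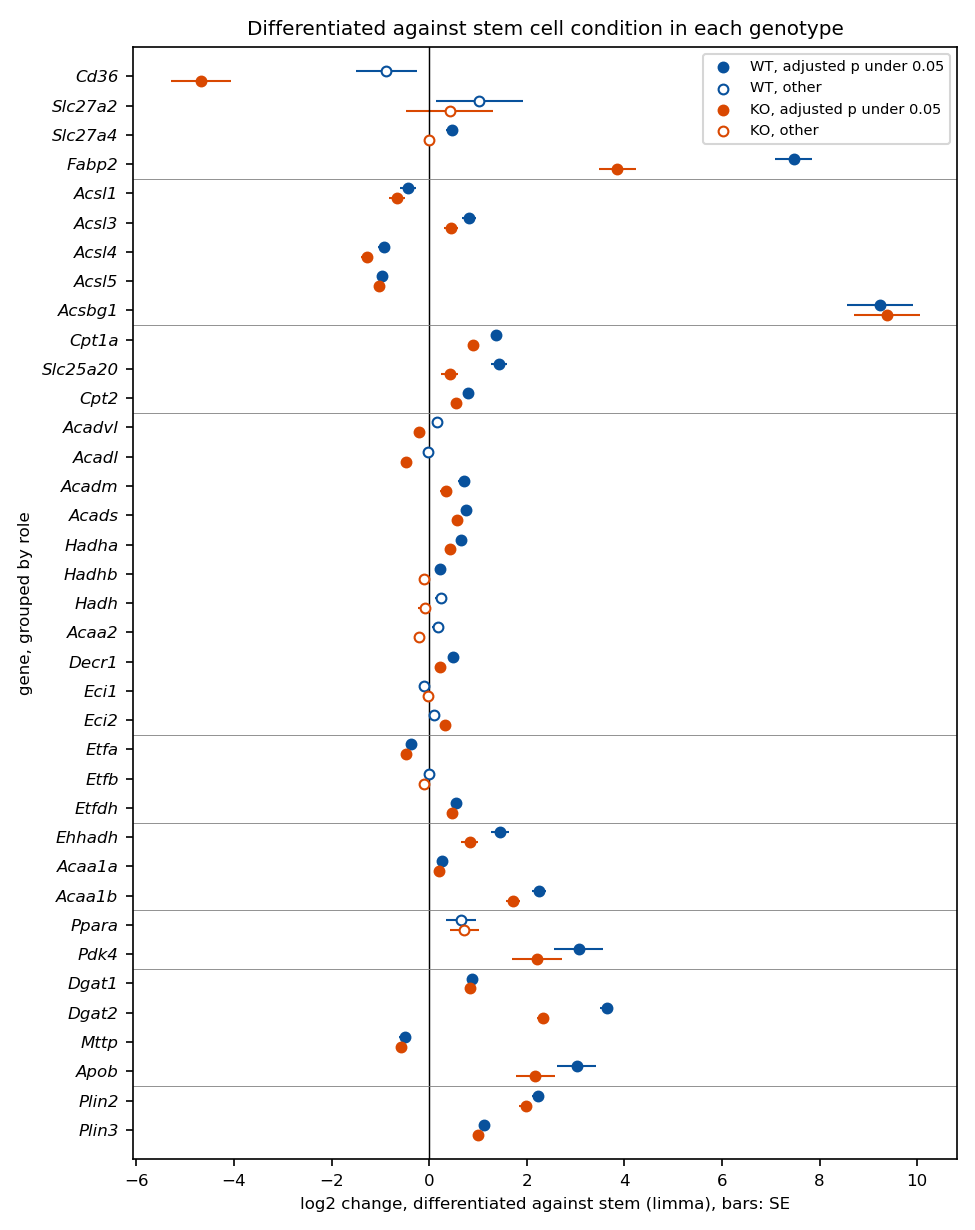
Points are the limma log2 change of the differentiated against the stem cell condition for each tested member (rows, grouped by role) in WT (blue) and KO (red), with bars for the SE and filled points for adjusted p under 0.05. Acsbg1, Fabp2, Dgat2, Pdk4 and Apob lie farthest right, and the synthetases Acsl1, Acsl4 and Acsl5 lie left of 0 in both genotypes. The stem libraries alone would not have passed Acsbg1, Fabp2 and Pdk4 through the filter.

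The spread between libraries was shared among these genes. KO differentiated library 1 was the lowest of its group for 24 of 37 members, beside 39.4% of all tested genes, and KO differentiated library 3 the highest for 23, beside 29.5%. In WT stem, library 1, the one with the high sum of fibroblast markers, was the lowest for 23 members, beside 38.6% of all genes. With WT stem library 1 and KO stem library 3 both left out, a repeat chosen after seeing the data, 16 members were lower in KO differentiated and 2 higher, and 1, Cd36, was higher in KO stem.

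Summed levels of markers of the epithelium itself moved with the genotype in the differentiated condition. The summed level of 7 colon epithelium markers was 111476 to 158753 in WT differentiated and 59384 to 80701 in KO differentiated. Most of the WT sum was Car1, at 60548 to 102119 in WT and 9858 to 28609 in KO, and Slc12a2 of the same list went the other way, at 29198 to 31197 in WT and 35229 to 38712 in KO. The sum of 8 epithelial markers was 1501725 to 1631321 and 1270767 to 1339763, and that of 8 small intestinal enterocyte markers 3044 to 4886 and 711 to 2085. The largest parts of the epithelial sum were Krt8 and Krt19. Two-sided spread was seen for Cdh1, at 150821 to 160313 in WT and 137716 to 158840 in KO, with overlap. Krt18 overlapped as well, at 149076 to 170734 in WT and 133722 to 165160 in KO. Most of the enterocyte sum was Alpi and Slc5a1. Sis of that list had a mean of 22.2 in WT and 30.5 in KO, with overlap, and Lct, Apoa4 and Fabp6 did not pass the filter. The 6 stem and cycling cell markers summed to 6067 to 6314 in WT differentiated and 9879 to 10361 in KO differentiated, with Lgr5 and Axin2 apart and Mki67 and Top2a overlapping between genotypes. In the stem cell condition they summed to 43388 to 53632 in WT and 35142 to 47604 in KO. The WT and KO ranges of these 4 lists did not overlap in the differentiated condition. The 5 hepatocyte markers, with Serpina1a at 0 in every library, summed to 376 to 504 in WT differentiated and 103 to 280 in KO differentiated. The part of a different extent of differentiation, or of a different mix of cells, in the lower lipid genes of KO was not tested.

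Of 129 other genes of lipid metabolism, 112 were tested. In the differentiated condition 14 were higher and 40 lower in KO, with a median log2 change of -0.22, so that 48.2% were called beside 27.6% of all tested genes. In the stem cell condition 3 were higher and 7 lower, with a median of -0.00, and the 8.93% called were near the 6.57% of all genes. Of 13 other peroxisomal genes 7 were lower and 2 higher in KO differentiated, and of 10 genes of triglyceride synthesis 6 were lower and 1 higher. Of 16 genes of fatty acid synthesis 3 were lower and 2 higher, and of 12 genes of lipolysis and droplets 3 were lower and 0 higher. These called shares of 31.2% and 25% were near the 27.6% of all tested genes. Of 19 other mitochondrial and transport genes 4 were lower and 3 higher, and of 8 thioesterases 3 were lower and 2 higher. Beside these counts, 13.9% of all tested genes were lower and 13.8% higher in KO differentiated.

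Creb3l3, a transcription factor of lipid metabolism, had a mean of 275 in WT differentiated and 73.6 in KO differentiated (log2 -2.05 ± 0.59, adjusted p = 0.0252), and Apoc2, the activator of lipoprotein lipase, 118 and 29.6 (log2 -1.98 ± 0.51, adjusted p = 0.0162). Both calls were lost without KO differentiated library 1 or WT differentiated library 1, and that of Creb3l3 also without WT differentiated library 3 (adjusted p up to 0.104 for Creb3l3 and 0.0637 for Apoc2). The largest positive changes among the 112 in KO differentiated began with Acot1, an acyl-CoA thioesterase, at 46.2 in WT and 174 in KO (log2 1.89 ± 0.19, adjusted p = 1.64e-04). Slc27a3 had 39.6 and 109 (log2 1.41 ± 0.21, adjusted p = 0.00144), and Acox2, the peroxisomal branched-chain acyl-CoA oxidase, 531 and 1439 (log2 1.40 ± 0.25, adjusted p = 0.00294).

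Acox2 was also higher in KO stem than in WT stem, with a mean of 2818 in KO and 656 in WT (log2 2.10 ± 0.25, adjusted p = 7.13e-04). Angptl4, an inhibitor of lipoprotein lipase and known PPAR target, had 168 beside 85.9 (log2 0.98 ± 0.17, adjusted p = 0.00817). Slc27a1, a fatty acid transport protein, had 1536 beside 1082 (log2 0.51 ± 0.11, adjusted p = 0.0211, adjusted p up to 0.0963 without KO stem library 1 or 2 or WT stem library 2). The largest negative changes were those of Nr1h4, the bile acid receptor FXR, at 280 in WT and 92.2 in KO (log2 -1.64 ± 0.30, adjusted p = 0.0098), and of Acot4, another thioesterase, at 81.9 and 29.7 (log2 -1.43 ± 0.29, adjusted p = 0.0147). Acsf2 followed at 5971 and 2738 (log2 -1.08 ± 0.26, adjusted p = 0.0311, adjusted p up to 0.125 without KO stem library 1 or 2, WT stem library 2 or 3 or WT differentiated library 1).

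With differentiation, 49 of the 112 other lipid genes rose and 35 fell in WT, and 41 rose and 41 fell in KO. The called shares of 75% and 73.2% were near the 72.2% and 67.7% of all tested genes. Creb3l3 had at most 2 reads in any stem library and rose to means of 275 in WT (adjusted p = 4.24e-07) and 73.6 in KO (adjusted p = 1.58e-05). Apoc2, with at most 3 reads in any stem library, rose to 118 in WT (adjusted p = 5.27e-07). Creb3l3 and Apoc2 passed the filter only through differentiated libraries, where they were high. Apobec1, the enzyme that edits Apob mRNA, rose from 89.6 to 965 in KO (log2 3.43 ± 0.14, adjusted p = 5.97e-09). Of 16 genes of fatty acid synthesis, 11 were lower and 2 higher in WT, and 13 were lower and 1 higher in KO. Among all tested genes, 35.9% were lower and 36.3% higher in WT, and 33.6% were lower and 34.1% higher in KO. Acot1 fell from 400 to 46.2 in WT (log2 -3.09 ± 0.19, adjusted p = 4.62e-08). Fads1, a desaturase of polyunsaturated fatty acids, fell from 2189 to 325 in WT (log2 -2.78 ± 0.15, adjusted p = 1.69e-08) and from 2315 to 602 in KO (log2 -1.94 ± 0.15, adjusted p = 4.41e-07). Scd1, the stearoyl-CoA desaturase, fell from 21890 to 6396 in KO (log2 -1.82 ± 0.22, adjusted p = 2.14e-05). Fabp5, the epidermal fatty acid binding protein, fell from 780 to 120 in WT (log2 -2.69 ± 0.15, adjusted p = 3.31e-08) and from 868 to 162 in KO (log2 -2.43 ± 0.15, adjusted p = 1.19e-07).

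The interaction called 6 of the 112 higher and 13 lower, beside 5.12% and 3.58% of all tested genes. Acacb, the acetyl-CoA carboxylase whose product inhibits Cpt1a, had the lowest value (log2 -2.72 ± 0.51, adjusted p = 0.0151). Mogat2, an intestinal monoacylglycerol acyltransferase, had log2 -1.10 ± 0.27, adjusted p = 0.0331, a call lost without any 1 KO stem or WT differentiated library or without WT stem library 2 (adjusted p up to 0.0771). Txnip had log2 -0.99 ± 0.27, adjusted p = 0.0463, lost without any 1 library other than WT stem library 1 (adjusted p up to 0.105). The highest values were those of Acot1 (log2 1.70 ± 0.26, adjusted p = 0.0098) and Slc27a3 (log2 1.45 ± 0.30, adjusted p = 0.0194, adjusted p up to 0.0527 without KO stem library 2 or WT differentiated library 3). Fads1 had log2 0.83 ± 0.21, adjusted p = 0.0334, lost without KO stem library 1 or 2, KO differentiated library 1 or 3, WT differentiated library 1 or 2 or WT stem library 2 (adjusted p up to 0.081).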

How the data were processed

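Total RNA of 12 organoid libraries, 3 per group, was sequenced. The deposited table holds 1 signal value per gene and library, described by the authors as normalized counts, with Bowtie2, RSEM 1.2.11, DESeq2 1.18.1 and the genome GRCm38 named in the submitters' processing notes. The annotation, filters and use of strand are not given in the sources used here. All nonzero values were whole multiples of 1 step per library (100% within 0.05 of a read), so reads were recovered by dividing by that step. Gene names came from GENCODE vM21 (99.3% of identifiers matched).

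Genes with at least 10 normalized counts in at least 3 libraries (14856) were tested with limma 3.58.1 in R 4.3.3 on log2(normalized count + 1), with 4 group means over all 12 libraries, a trend in the variance and 5 contrasts. P-values were adjusted by Benjamini-Hochberg over these genes within a contrast, with a threshold of 0.05. Normalization by size factors assumes that most genes do not change, and the pseudocount of 1 shrinks changes of genes with few reads. edgeR 4.0.16 (quasi-likelihood) and DESeq2 1.42.0 on the recovered reads, other pseudocounts, filters and scalings, a replicate block and leaving out each library in turn were alternatives. Intervals of read ratios are 95% exact and cover counting error only.

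Libraries of the same number deviated together in KO stem and KO differentiated (correlations of deviations from the group means 0.286, 0.191 and 0.256 for numbers 1, 2 and 3), so the numbers pair these libraries, a hint from the data and not from the labels. In WT stem and WT differentiated they were 0.107, 0.0552 and 0.145, and between genotypes not all were above 0.1. WT stem and WT differentiated libraries of different numbers had -0.103 to 0.0111, so the WT libraries may be paired too, less clearly. No 2 libraries agreed within sampling noise (chi-square per gene 8.93 to 112).

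The members, the other lipid genes and the marker lists were chosen with earlier results of these data known. Values per library are given for members called in at least 2 of the 5 comparisons or in a comparison of genotypes and for the member of each role with the highest level per kilobase. Of the other lipid genes, up to 3 called genes with the largest change in each direction of a comparison were named, where a group mean was at least 50. One of the genes so chosen is not reported here. Columns of other samples numbered 0.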

Additional observations from a re-analysis of the deposited data

Results flagged for a closer look

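For 6 of the 37 tested members the KO effect differed between the differentiated and the stem cell condition in limma's interaction test, beside 8.7% of all tested genes, and for all 6 the difference was negative. Cd36, which was high in the KO stem libraries and near 0 in the others, had log2 -3.80 (adjusted p = 0.027), a size that depends on the pseudocount, and edgeR did not call it (adjusted p = 0.121). Cd36 passed the filter only through those KO stem libraries. Fabp2 had log2 -3.62 (adjusted p = 0.0098) and Dgat2 log2 -1.31 (adjusted p = 0.00876), and these calls stood without any 1 library. Slc25a20 had log2 -1.01 (adjusted p = 0.0283), Cpt1a log2 -0.48 (adjusted p = 0.0323) and Acadl log2 -0.46 (adjusted p = 0.027), and each of these was lost without 1 of several libraries, at the highest with an adjusted p of 0.0767, 0.0883 and 0.0712.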

How the results depend on the processing

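Of 79 gene results (each called member in each comparison), 0 reversed and 60 kept their call under every alternative that tested them. Not every alternative tested every result. Without 1 library, 19 lost it under at least 1 choice, and 13 lost it under at least 1 other alternative. DESeq2 also called 2 members higher in KO stem, but with Mttp gained and Pdk4 lost. The 2 members higher in KO stem became 1 under edgeR, no filter, only the groups compared, pseudocounts of 0.5 and 5, quantile normalization, the replicate block, or with WT stem library 1 and KO stem library 3 both left out, and 0 under a mean of at least 50, which leaves Cd36 and Pdk4 untested. The 0 members higher in KO differentiated became 1 under DESeq2, edgeR, only the groups compared and a pseudocount of 5, and 2 with both those libraries left out. Leaving out 1 library gave 1 to 2 members higher in KO stem, 0 to 2 higher and 10 to 16 lower in KO differentiated, and 0 to 1 higher and 2 to 7 lower in the interaction. The 15 members lower in KO differentiated were 11 after quantile normalization, with a median log2 change of -0.20, 14 with edgeR and 17 with DESeq2.

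With the replicate number as a block over all libraries 20 members were lower in KO differentiated, the added ones being Acads, Acsl1, Apob, Etfa and Slc27a4, and 9 in the interaction. Over the whole table this block called 2463 genes lower in KO differentiated, beside 2058 without it. The numbers paired the KO libraries more clearly than the WT ones. A block within genotype added Ppara as higher with differentiation in KO and also in WT, and changed no other call there. In the interaction it lost Cpt1a and added Acsl4 and Slc27a4. Over all genes, the alternatives gave 166 to 840 higher and 131 to 1144 lower genes in KO stem (limma as reported 517 and 459, edgeR 635 and 308), 1095 to 2883 and 1138 to 2816 in KO differentiated (2045 and 2058, edgeR 2301 and 1791) and 207 to 1499 and 135 to 940 in the interaction (760 and 532, edgeR 674 and 546). Depth limits Cd36, Pdk4, Ppara, Slc27a2, Fabp1 and the stem levels of Fabp2 and Acsbg1, where 1 read is worth 0.539 to 2.27 normalized counts.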
